A study of Mus musculus with 9 samples.

Results

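Liver RNA of mice that ate a high-fat diet and were gavaged with the gut bacterium *Papillibacter cinnamivorans* (HFD+Pc) was compared with liver RNA of control mice. The comparison covered every gene with at least 1 FPKM (fragments per kilobase of transcript, scaled to library size) in at least 3 of the 6 libraries of these groups, which gave 10628 of the 54007 rows in the deposited table. Of these genes, 10465 carried a gene symbol and 9320 reached 1 FPKM in all 6 libraries. At the edge of the rule, 466 genes met the minimum in exactly 3 libraries, with a median level of 1.04 FPKM, and 439 genes that met it in 2 libraries were left out, with a median level of 0.878 FPKM. The HFD+Pc libraries alone brought in 81 genes and the control libraries alone 110 genes. For these genes the rule itself sets the groups apart at 1 FPKM, so a lack of overlap is no finding. Among them are Mogat1, Cyp2b9, Cfd and Slc39a10, brought in by HFD+Pc, and Mt2, brought in by control.

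All mice were C57BL/6. They entered the study at 6 weeks of age in groups of 15, and the livers were sampled at postnatal day 98. The control group is labelled only as control, the second group ate the high-fat diet (HFD), and the third ate it and received the bacterium by gavage (HFD+Pc). Each group gave 3 libraries, numbered 1, 2 and 4 for control, 1, 2 and 3 for HFD, and 1, 3 and 4 for HFD+Pc, and values per library follow that order throughout. HFD+Pc and control mice differed in diet and in gavage, so in this comparison the effects of diet, bacterium and gavage cannot be told apart. The labels give neither the sex, the control diet, a sham gavage nor the dose, and nothing states how many mice went into a library. The p-values therefore reflect only how these libraries varied, which may be technical.

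The liver takes up fatty acids from blood and diet and esterifies, burns or exports them. Nuclear receptors set much of this programme: PPAR-alpha drives fatty acid oxidation, PPAR-gamma drives storage, SREBP2 drives cholesterol synthesis when sterols in the endoplasmic reticulum are low, and CAR, PXR and FXR act on detoxifying enzymes and bile acids. The series title places *P. cinnamivorans*, an anaerobic gut bacterium, among commensals linked to obesity, and the comparison with control livers asks how far the liver of a gavaged mouse on the diet stands from that of a mouse without either.

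A large share of the liver transcriptome differed between HFD+Pc and control. At a limma adjusted p under 0.05, 2545 of the 10628 genes passed (23.9%), 1227 of them higher (11.5%) and 1318 lower (12.4%) in HFD+Pc. Most changes were small. The difference on the log2(FPKM + 1) scale reached 2-fold or more in 69 of the genes that rose and 146 of those that fell, and 4-fold or more in 10 and 13. The values of the 3 HFD+Pc and 3 control libraries did not overlap in 4604 genes (43.3%), a count that includes the genes brought in by 1 group alone. In the same fit, 68 genes (0.64%) passed between HFD+Pc and HFD, a comparison that shares the HFD+Pc libraries. Without HFD+Pc replicate 3 the counts were 619 higher and 805 lower, and without control replicate 2 the number higher was 736.

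In a principal component analysis of the 6 libraries, the first component held 57.9% of the variance and separated the groups. The second held 13.9% and set HFD+Pc replicate 1 (-17.3) apart from HFD+Pc replicates 3 and 4 (7.96 and 8.35). Read totals recovered per library ran from 16562020 to 18930317, with 10323 to 10587 genes at 1 FPKM or more. A floor of 3 reads corresponded to 0.160 to 0.179 FPKM for a 1 kb gene, and it covers counting error only. Differences are given as HFD+Pc minus control ± SE in log2(FPKM + 1), a scale that shrinks the changes of weakly expressed genes, and group means are FPKM ± SD (n = 3). Rose and fell are used of genes that passed. The counts of each list stand beside the 11.5% of all tested genes that rose and the 12.4% that fell. A list with shares near these does not stand out from the other genes. Unless exceptions are given, a gene described singly also passed whichever of the 9 libraries was omitted. In bulk tissue, fewer cells of a type and less RNA per cell cannot be told apart.

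**Figure D1:**
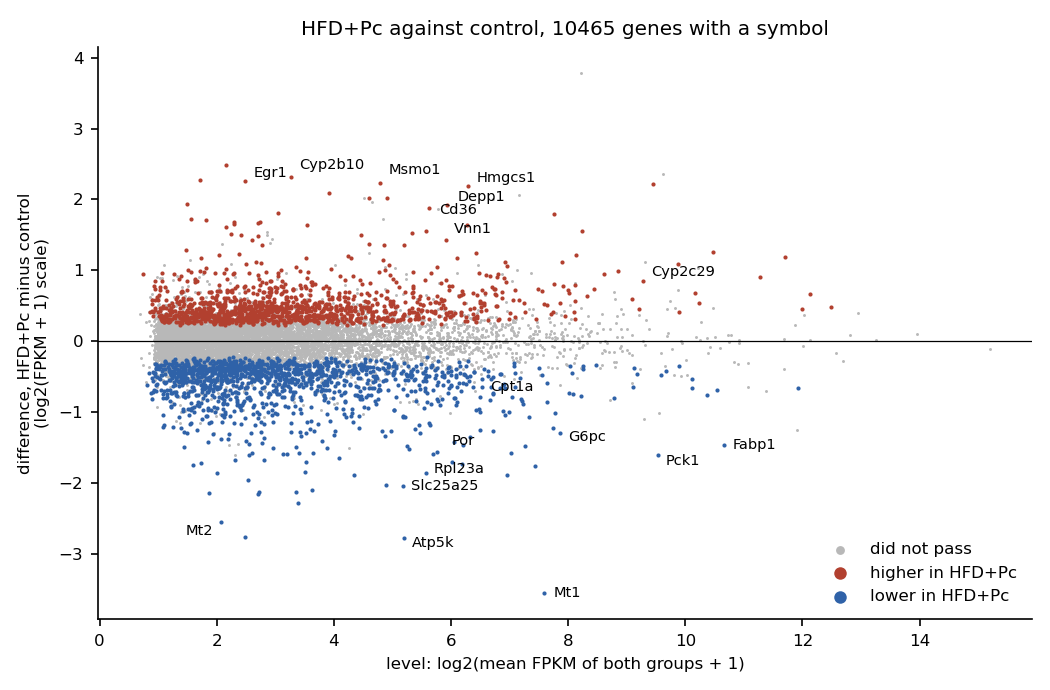
Difference between HFD+Pc and control (vertical, log2(FPKM + 1) scale) against mean level (horizontal, log2) for the 10465 genes with a symbol, with genes past a limma adjusted p of 0.05 in red (higher) and blue (lower). Mt1 at -3.55 and Atp5k at -2.78 lie lowest among the labelled genes, and Cyp2b10 at 2.32 lies highest.

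**Figure D2:**
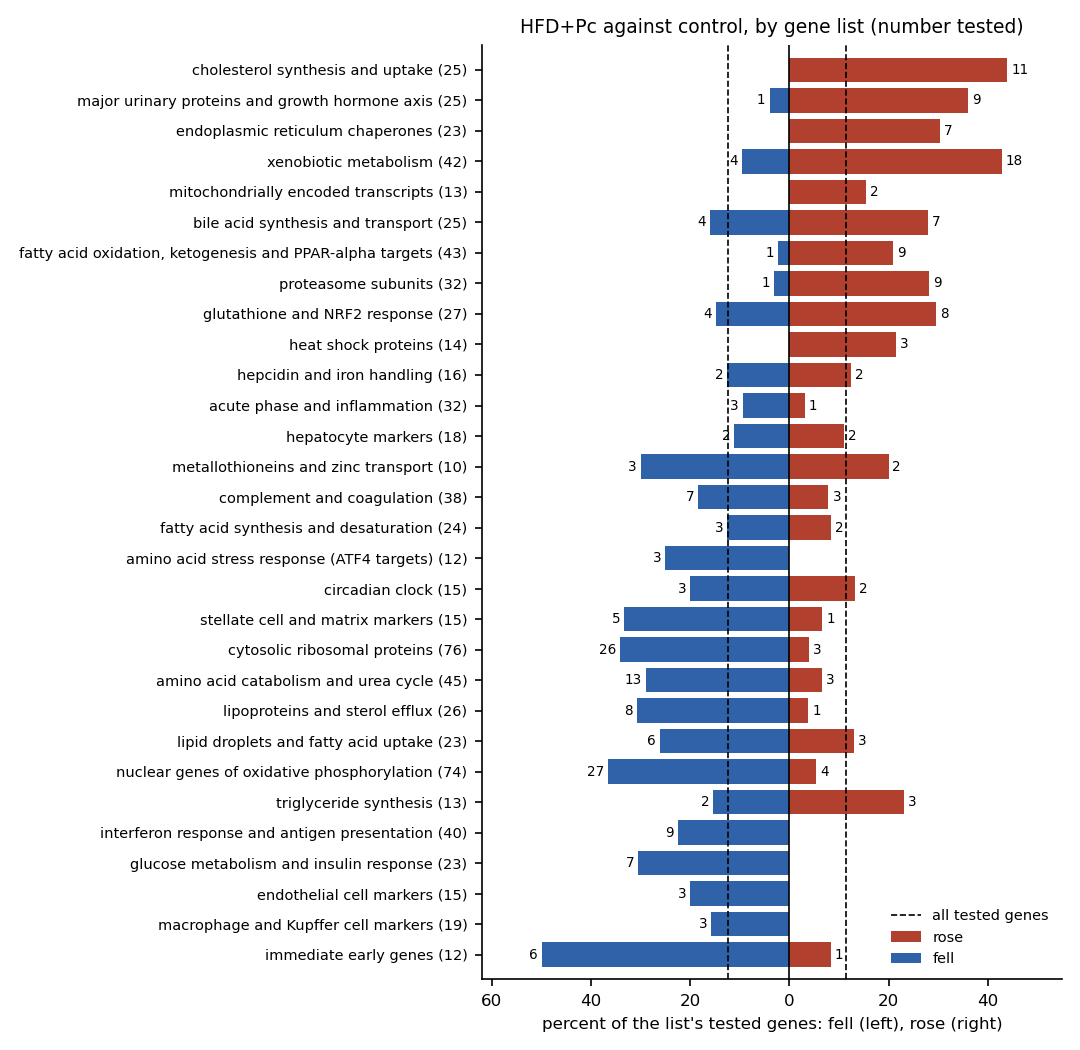
Percent of each list's tested genes that rose (red, right) or fell (blue, left) in HFD+Pc against control, with the number of genes at each bar, lists ordered by their median difference and dashed lines at the 11.5% and 12.4% of all tested genes. Cholesterol synthesis had 11 of 25 genes higher and oxidative phosphorylation 27 of 74 lower.

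Of 23 tested genes of fatty acid uptake and lipid droplets, 3 rose and 6 fell, with a median difference of -0.17, against 0.01 over all tested genes. Cd36, which encodes a fatty acid translocase and is a PPAR-gamma target in steatotic liver, stood at 22.5, 19.3 and 18.3 FPKM in the control libraries, at 96.3, 62.03 and 75.7 in HFD and at 84.1, 72.04 and 72.3 in HFD+Pc. All 3 HFD+Pc libraries lay above all control libraries and within the range of HFD. The difference from control was 1.88 ± 0.15 (limma adjusted p = 0.000833), and that from HFD was -0.02 ± 0.15 (adjusted p = 0.974). Pparg itself rose from 1.68 ± 0.580 to 4.14 ± 0.166 FPKM (difference 0.96 ± 0.17, adjusted p = 0.00524). Fitm1, which encodes a protein of lipid droplet formation, rose from 13.1 ± 5.36 to 33.5 ± 0.945 FPKM (1.37 ± 0.26, adjusted p = 0.00801).

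The genes of this group that fell included lipases and fatty acid carriers. Fabp1, the main fatty acid binding protein of hepatocytes, stood at 2861, 2341 and 1955 FPKM in control, at 1897, 1717 and 1809 in HFD and at 682, 914 and 1001 in HFD+Pc. The 3 groups did not overlap, and HFD+Pc was lowest. Its difference was -1.46 ± 0.18 against control (adjusted p = 0.00145) and -1.08 ± 0.18 against HFD (adjusted p = 0.0433), the latter call lost without control replicate 2, any HFD+Pc library, or HFD replicate 1 or 2 (adjusted p up to 0.133). Pnpla2, the adipose triglyceride lipase ATGL, fell from 47.9 ± 4.43 to 22.4 ± 3.61 FPKM (-1.07 ± 0.14, adjusted p = 0.0019), and G0s2, which encodes an inhibitor of that lipase, fell by 1.75 ± 0.31 (adjusted p = 0.00643). Cideb, a lipid droplet and lipoprotein assembly factor, fell from 29.2 ± 1.48 to 19.3 ± 0.646 FPKM (-0.57 ± 0.09, adjusted p = 0.00339). Lipe, the hormone-sensitive lipase, also passed (-0.39 ± 0.11, adjusted p = 0.0302), a call lost without control replicate 2 or HFD+Pc replicate 1 or 3 (adjusted p up to 0.104). Plin2, which coats lipid droplets, stood at 189.9 ± 21.7 in control and 250.5 ± 10.7 FPKM in HFD+Pc and did not pass (adjusted p = 0.0622), nor did Cidec (3.33 ± 1.14 and 2.78 ± 1.23 FPKM, adjusted p = 0.654).

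**Figure D3:**
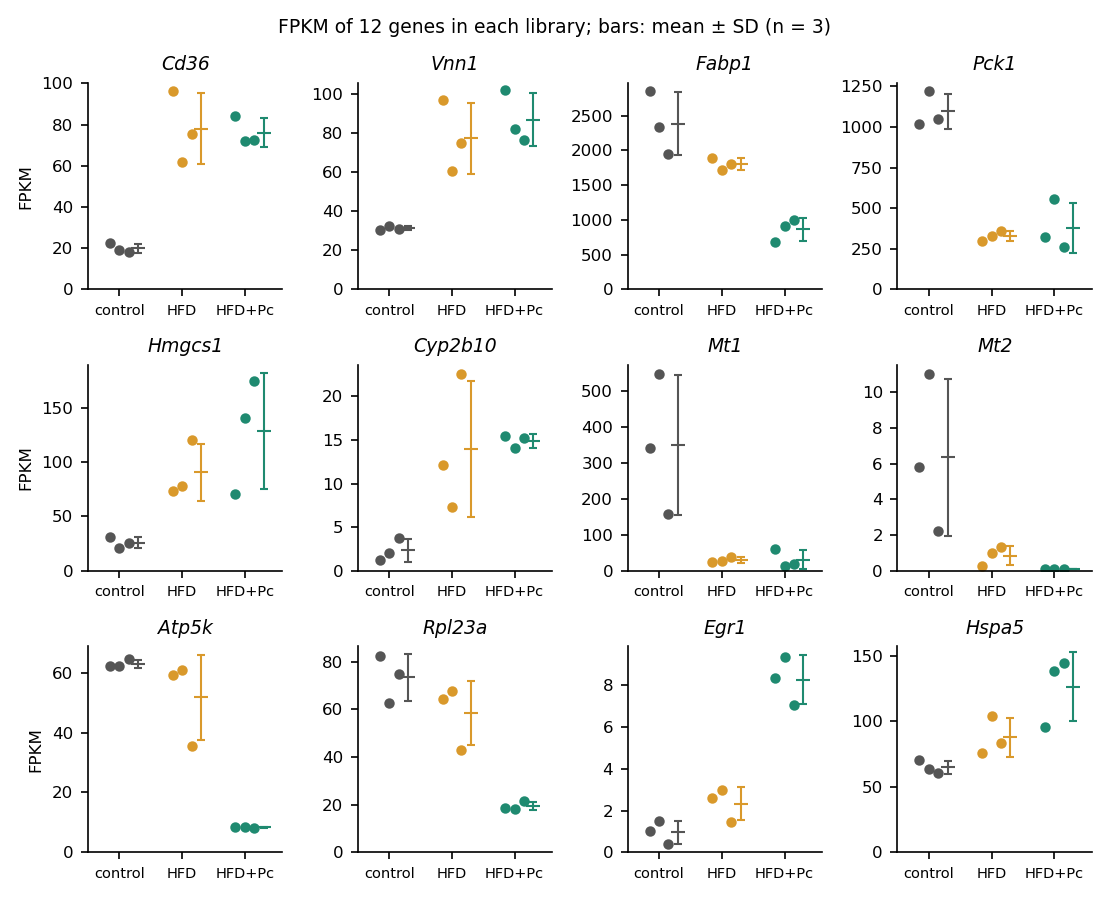
FPKM of 12 genes in each library of the control, HFD and HFD+Pc groups (points), with the group mean ± SD beside them (n = 3); every vertical axis starts at 0. In Atp5k the 3 HFD+Pc libraries lie between 8.17 and 8.45 FPKM and every other library lies at 35.3 FPKM or above.

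Among 13 tested genes of triglyceride synthesis, 3 rose and 2 fell, with a median difference of -0.22. Mogat1, a monoacylglycerol acyltransferase and PPAR-gamma target, was at 0.412, 0.416 and 0.390 FPKM in control and at 1.43, 1.800 and 2.05 in HFD+Pc (0.97 ± 0.22, adjusted p = 0.014). It met the rule through the HFD+Pc libraries alone, so the lack of overlap was set by the rule. These levels rest on 11 to 12 reads per control library and 39 to 54 per HFD+Pc library. Gpam and Gpat3, which acylate glycerol-3-phosphate in the opening step, had differences of 0.96 ± 0.28 and 0.70 ± 0.21, and each passed in 3 of 9 fits that left out a library. The call of Gpam was lost without control replicate 1, 2 or 4, HFD+Pc replicate 3 or 4 or HFD replicate 2 (adjusted p up to 0.125) and that of Gpat3 was lost without control replicate 1, 2 or 4, HFD+Pc replicate 1 or 4 or HFD replicate 1 (adjusted p up to 0.11). The number of genes that rose was 1 without control replicate 1, 2 or 4 or HFD+Pc replicate 4. Of the acyltransferases of the next step, Agpat2 fell from 138 ± 6.87 to 87.04 ± 5.66 FPKM (-0.66 ± 0.09, adjusted p = 0.00243) and Agpat3 from 44.7 ± 2.85 to 32.9 ± 1.65 (-0.43 ± 0.08, adjusted p = 0.00586). The median of this list was above 0 without control replicate 4.

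Among 43 tested genes of fatty acid oxidation, ketogenesis and other PPAR-alpha targets, 9 rose and 1 fell, with a median difference of 0.20, and 31 differences were positive. Vnn1, a pantetheinase induced by PPAR-alpha, stood at 30.6, 32.5 and 30.7 FPKM in control and at 102, 82.3 and 76.4 in HFD+Pc. The control libraries lay close together and the HFD+Pc libraries all lay above them (1.43 ± 0.16, adjusted p = 0.00142). Enzymes of the beta-oxidation spiral and of ketone body metabolism rose by less: Hadh from 67.2 ± 3.48 to 106 ± 5.53 FPKM (0.65 ± 0.09, adjusted p = 0.00286) and Bdh1 from 41.7 ± 2.58 to 65.2 ± 3.72 (0.63 ± 0.09, adjusted p = 0.00274). Cpt2, Acads and the fatty acid omega-hydroxylase gene Cyp4a12a also rose, by 0.67, 0.54 and 1.06. The single gene that fell was Cpt1a, which encodes the rate-limiting carnitine palmitoyltransferase of the outer mitochondrial membrane.

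Cpt1a stood at 97.7, 111 and 123 FPKM in control, at 74.3, 70.02 and 77.2 in HFD and at 82.7, 69.2 and 61.03 in HFD+Pc. Both diet groups lay below control without overlap (HFD+Pc -0.64 ± 0.13, adjusted p = 0.00795). Ppara was at 44.96 ± 4.08 and 50.6 ± 5.401 FPKM and did not pass (adjusted p = 0.245). Neither did the PPAR-alpha targets Cyp4a14, at 1201 ± 224 and 1654 ± 192 FPKM (adjusted p = 0.308), and Fgf21, a fasting hormone at 3.87 ± 0.737 and 2.76 ± 0.0140 FPKM (adjusted p = 0.344).

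Cholesterol synthesis was the list with the highest median. Of 25 tested genes, 11 rose and none fell, with a median difference of 0.92. Each gene's log2(FPKM + 1) was also set against its mean over the 9 libraries. The list median was then -0.16, -0.76 and -0.51 in control and -0.30, 0.58 and 0.79 in HFD+Pc. Across the list, HFD+Pc replicate 1 thus lay within the control range. The summed FPKM overlapped as well, at 552.5 to 712.2 in control and 705.9 to 1422 in HFD+Pc. Hmgcs1, the cytosolic HMG-CoA synthase, stood at 31.2, 20.7 and 25.8 FPKM in control, at 73.2, 77.8 and 120.3 in HFD and at 70.6, 141 and 174 in HFD+Pc. HFD+Pc replicate 1 lay well below replicates 3 and 4 and still above every control library (2.19 ± 0.33, adjusted p = 0.00375). Msmo1, a sterol C4-demethylation enzyme, was at 10.9, 6.82 and 6.47 FPKM in control and at 20.5, 51.7 and 63.4 in HFD+Pc (2.24 ± 0.39, adjusted p = 0.0061). Idi1, the isopentenyl diphosphate isomerase, was at 12.7, 6.48 and 12.5 and at 27.1, 46.4 and 68.6 FPKM (2.02 ± 0.40, adjusted p = 0.00956). In each of these genes the same HFD+Pc library, replicate 1, was lowest of its group. Stard4, a sterol carrier, rose from 10.99 ± 2.09 to 26.4 ± 6.43 FPKM (1.18 ± 0.19, adjusted p = 0.00405).

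Mvk, Fdft1, Sqle, Cyp51, Sc5d and Insig1 also passed, with differences of 0.92 to 1.65, and each lost its call in at least 4 of the 9 fits that left out a library. The number of list genes that rose was 4 without control replicate 2, HFD+Pc replicate 3 or HFD+Pc replicate 4, 5 without control replicate 4, and 7 without control replicate 1 or HFD replicate 2. Limma-voom on the recovered reads called 6.

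**Figure D4:**
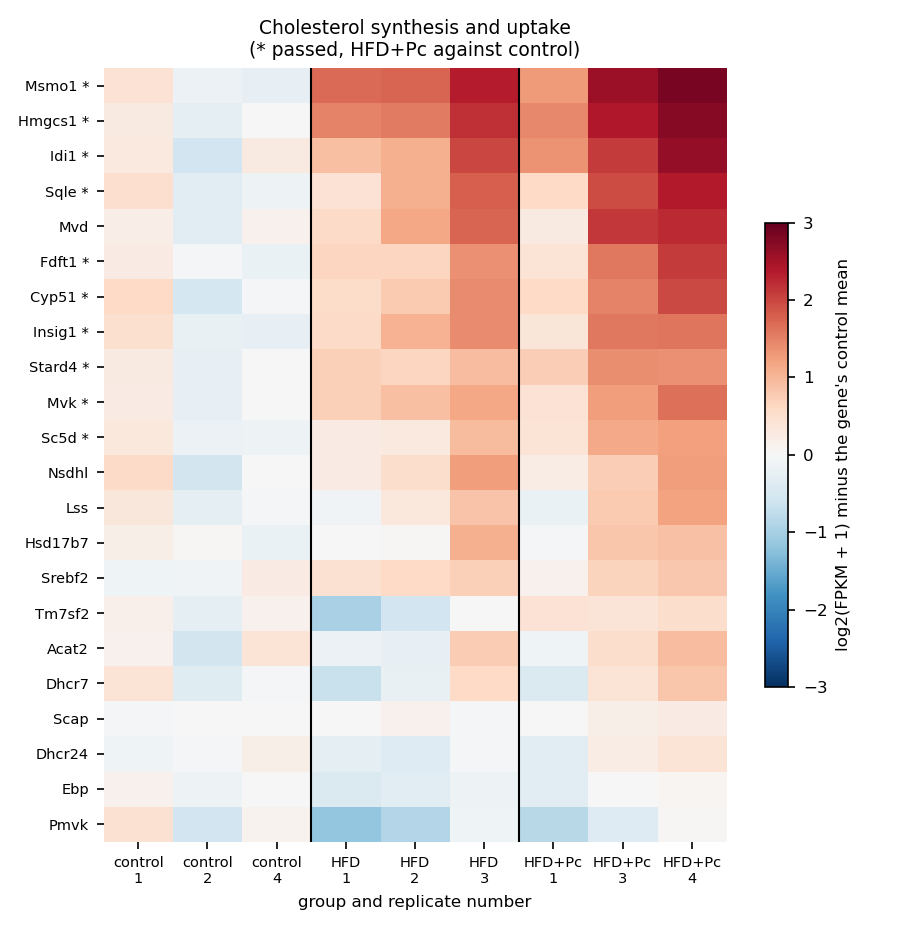
Heat map of 22 of the 25 tested genes of cholesterol synthesis and uptake (rows) in the 9 libraries (columns), coloured by log2(FPKM + 1) minus the gene's control mean; stars mark genes that passed in HFD+Pc against control. HFD+Pc replicates 3 and 4 are the darkest columns, and replicate 1 is paler in most rows, for example 70.6 against 141 and 174 FPKM in Hmgcs1.

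SREBP2 binds sterol regulatory elements in the promoters of these genes. The 250 bases before the annotated start were searched on both strands for the letters TCACNCCAC or ATCACNCCA, which overlap each other, in RefSeq windows of build GRCm38.p6. Of 18 tested list genes with a window, 2 held a match, Hmgcs1 and Srebf2, against 513 of 32851 windows in all (1.56%). The pair is shown because Hmgcs1 had one of the largest rises of the list while Srebf2, the gene of SREBP2 itself, did not pass (0.53 ± 0.17, adjusted p = 0.0527). The Hmgcs1 window is chr13:119690101-119690350 and the Srebf2 window chr15:82147019-82147268, both on the plus strand and printed 5′ to 3′ with the match in capitals. The match begins 137 bases before the start of Hmgcs1 and 163 bases before that of Srebf2. A match is a description of the sequence and not a measured site. A list gene counted if any of its windows matched, so the count of genes and the share of all windows are unlike measures.
Hmgcs1: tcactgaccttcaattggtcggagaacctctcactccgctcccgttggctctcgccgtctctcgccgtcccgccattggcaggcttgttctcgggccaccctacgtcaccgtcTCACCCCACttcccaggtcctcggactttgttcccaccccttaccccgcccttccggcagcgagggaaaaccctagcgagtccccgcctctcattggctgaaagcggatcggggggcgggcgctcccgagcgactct
Srebf2: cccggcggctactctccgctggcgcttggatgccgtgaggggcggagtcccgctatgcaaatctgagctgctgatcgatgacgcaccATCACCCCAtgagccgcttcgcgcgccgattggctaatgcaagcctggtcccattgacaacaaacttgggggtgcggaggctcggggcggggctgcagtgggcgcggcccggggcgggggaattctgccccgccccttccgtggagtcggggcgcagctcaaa

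Fatty acid synthesis did not move as cholesterol synthesis did. Among 24 tested genes 2 rose and 3 fell, beside 11.5% and 12.4% of all tested genes, with a median difference of -0.12. Scd1, the stearoyl-CoA desaturase, stood at 4569, 4899.7 and 6869 FPKM in control, at 226, 241 and 3173 in HFD and at 2609, 2077 and 2111 in HFD+Pc. The HFD+Pc libraries lay close together below all control libraries, while the HFD libraries ranged over more than 10-fold. The test against control, which uses the spread of all groups, gave -1.25 ± 0.86 (adjusted p = 0.319), and it passed without HFD replicate 3 (adjusted p = 0.00262). Fasn, at 24.6 ± 11.5 and 48.3 ± 23.99 FPKM, and Srebf1, at 29.5 ± 5.02 and 34.2 ± 9.44, did not pass (adjusted p = 0.248 and 0.593).

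The 5 calls of this list all depended on the libraries. Scd2, a second desaturase, fell from 2.79 ± 0.0697 to 1.78 ± 0.234 FPKM (-0.45 ± 0.10, adjusted p = 0.0135), a call lost without HFD+Pc replicate 3 (adjusted p up to 0.0536). Scd2 shares sequence with 3 other genes and held 0.0572% of their summed control reads, so its level could carry reads of Scd1 and is uncertain. Hsd17b12, the elongation ketoreductase, rose by 0.47 ± 0.11 (adjusted p = 0.0147), lost without control replicate 2 (adjusted p up to 0.0522). The call of Tecr, which follows it in elongation, was lost without control replicate 4 or HFD+Pc replicate 1 or 3 (adjusted p up to 0.0763). That of the citrate carrier gene Slc25a1 was lost without control replicate 1, 2 or 4, HFD+Pc replicate 1 or 3 or HFD replicate 2 (adjusted p up to 0.1), and that of Acsl3 was lost without control replicate 2 or 4 or HFD+Pc replicate 3 or 4 (adjusted p up to 0.101). Fewer than 2 genes rose without control replicate 2 (0) and without control replicate 4, HFD+Pc replicate 3 or HFD+Pc replicate 4 (1 each). Of the 3 falls, 1 was left without control replicate 4 or HFD+Pc replicate 1, 0 without HFD+Pc replicate 3, and 5 genes fell without HFD replicate 3.

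Of 26 tested genes of lipoproteins and sterol efflux, 8 fell and 1 rose, with a median difference of -0.16. Apoa5, which promotes lipolysis of plasma triglycerides, stood at 565, 544 and 575 FPKM in control, at 291, 304 and 378 in HFD and at 302, 354 and 312 in HFD+Pc. Control lay apart from both diet groups, which overlapped (-0.80 ± 0.12, adjusted p = 0.00323). Apom, an HDL apolipoprotein that carries sphingosine-1-phosphate, fell from 189 ± 8.78 to 106 ± 12.4 FPKM (-0.84 ± 0.13, adjusted p = 0.00323), and Nr1h2, the oxysterol receptor LXR-beta, fell from 12.2 ± 1.03 to 7.61 ± 0.181 (-0.61 ± 0.10, adjusted p = 0.00473). Apoa1, the main HDL protein, was at 4741 ± 370.1 and 3023 ± 619 FPKM (-0.66 ± 0.20, adjusted p = 0.036), a call lost without control replicate 1, 2 or 4 or HFD+Pc replicate 1 or 3 (adjusted p up to 0.125). Apoa4 fell by 1.88 ± 0.41 (adjusted p = 0.0135), lost without HFD+Pc replicate 3 (adjusted p up to 0.0544). The sterol exporter gene Abcg8 was the 1 gene higher (0.41 ± 0.11, adjusted p = 0.0208), lost without control replicate 1 or 2 or HFD+Pc replicate 1 (adjusted p up to 0.0735). The number of falls was 4 without control replicate 2 or HFD+Pc replicate 3 and 5 without control replicate 4.

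Of 23 tested genes of glucose metabolism and the insulin response, 7 fell and none rose, with a median difference of -0.23. Pck1, the phosphoenolpyruvate carboxykinase that commits carbon to glucose synthesis, stood at 1017, 1220.3 and 1049 FPKM in control, at 298, 329 and 358 in HFD and at 319.9, 555 and 260.4 in HFD+Pc. Every library of either diet group lay below every control library (-1.60 ± 0.24, adjusted p = 0.00339), and HFD+Pc did not pass against HFD (0.13 ± 0.24, adjusted p = 0.831). G6pc, the glucose-6-phosphatase, was at 352, 381 and 241 FPKM in control and at 129, 189 and 88.4 in HFD+Pc (-1.29 ± 0.27, adjusted p = 0.0119). Pklr, the glycolytic pyruvate kinase of liver, fell as well, from 49.8 ± 13.97 to 22.8 ± 3.45 FPKM (-1.06 ± 0.22, adjusted p = 0.0104).

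Igfbp1, which insulin represses, was at 164, 203 and 81.6 FPKM in control and at 56.5, 55.98 and 60.9 in HFD+Pc (-1.26 ± 0.36, adjusted p = 0.0349), a call lost without control replicate 1 or 2 or HFD+Pc replicate 1, 3 or 4 (adjusted p up to 0.116). The other genes of this list that passed, all lower, were Fbp1, Pcx and Irs2. Fbp1 was lost without control replicate 2 (adjusted p up to 0.0606), Pcx was lost without control replicate 1 or 2 or HFD+Pc replicate 1 (adjusted p up to 0.0663) and Irs2 was lost without control replicate 1 or 2 or HFD+Pc replicate 3 or 4 (adjusted p up to 0.099). Without control replicate 1 or 2 the number of falls was 4, and 1 gene rose without HFD+Pc replicate 1.

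Xenobiotic metabolism had the largest number of rises of any list. Of 42 tested genes 18 rose and 4 fell, with a median difference of 0.40. Cyp2b10, the classical target of the nuclear receptor CAR, stood at 1.24, 2.01 and 3.82 FPKM in control, at 12.1, 7.28 and 22.6 in HFD and at 15.4, 14.04 and 15.2 in HFD+Pc. The HFD+Pc libraries agreed closely and lay above all control libraries (2.32 ± 0.37, adjusted p = 0.00466). Its paralog Cyp2b9 was at 0.598, 0.439 and 0.0884 FPKM in control, which rests on 21, 14 and 3 reads, and at 6.13, 6.96 and 6.66 FPKM in HFD+Pc, on 201, 219 and 211 reads (2.48 ± 0.54, adjusted p = 0.0129). Limma-voom on the recovered reads did not call Cyp2b9 (adjusted p = 0.109). Cyp2b9 met the rule through the HFD+Pc libraries alone, so the rule itself set its groups apart. Cyp2c29, an arachidonic acid epoxygenase, rose from 440.3 ± 66.2 to 793 ± 54.2 FPKM (0.86 ± 0.14, adjusted p = 0.00388).

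The receptor gene Ahr rose from 5.63 ± 0.638 to 9.63 ± 0.0278 FPKM (0.69 ± 0.10, adjusted p = 0.00243), and Cyp1a2, its best known hepatic target, rose by 0.72 ± 0.14 (adjusted p = 0.00719). Conjugating enzymes also rose, among them the bilirubin glucuronosyltransferase gene Ugt1a1 (0.82 ± 0.16, adjusted p = 0.00707) and Ugt2b5 (0.73 ± 0.12, adjusted p = 0.004). Por, the reductase that passes electrons to microsomal P450 enzymes, moved the other way. It stood at 129, 128 and 123 FPKM in control, at 58.5, 42.96 and 79.9 in HFD and at 58.6, 47.8 and 51.5 in HFD+Pc, with no overlap between control and the other groups (-1.26 ± 0.19, adjusted p = 0.00337). Ugt1a9 and Ugt2b37 fell, but both share sequence with relatives. Of their stretches of 40 bases, 64.8% and 26.1% occur in other genes. The reads summed over the genes that share at least 60 such stretches with them were higher in HFD+Pc by log2 ratios of 0.29 and 0.70. Ugt1a9 and Ugt2b37 held 18.7% and 0.654% of those reads in control, so their directions are uncertain.

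Among 25 tested genes of bile acid synthesis and transport, 7 rose and 4 fell, with a median difference of 0.22. Abcc3, a basolateral exporter, stood at 46.6, 41.3 and 37.6 FPKM in control and at 77.5, 79.8 and 71.8 in HFD+Pc, with no overlap (0.86 ± 0.10, adjusted p = 0.00142). Slco1b2, a basolateral uptake carrier, rose from 202 ± 7.59 to 351 ± 21.9 FPKM (0.79 ± 0.10, adjusted p = 0.00179), and the aldo-keto reductase gene Akr1c6 from 313 ± 61.9 to 613 ± 21.2 (0.99 ± 0.16, adjusted p = 0.00374). Slco1a4, another uptake carrier, fell from 17.3 ± 0.715 to 7.22 ± 0.984 FPKM (-1.16 ± 0.15, adjusted p = 0.002). Of its stretches of 40 bases, 2.70% occur in other genes. Summed with the 4 genes that share sequence with it, the log2 ratio of reads was -0.08, against -1.26 for Slco1a4 alone. Slco1a4 held 25.6% of that sum in control, so the sum cannot decide its direction. The farnesoid X receptor gene Nr1h4 (-0.47 ± 0.12, adjusted p = 0.0215), the sodium-dependent carrier gene Slc10a1 (-0.45 ± 0.13, adjusted p = 0.0328) and Cyp8b1, which sets the cholic acid share (-0.34 ± 0.11, adjusted p = 0.0455), passed in 5, 4 and 1 of the 9 fits that left out a library. Nr1h4 was lost without control replicate 1 or 2 or HFD+Pc replicate 3 or 4 (adjusted p up to 0.0736), Slc10a1 was lost without control replicate 1 or 4 or HFD+Pc replicate 1, 3 or 4 (adjusted p up to 0.1), and Cyp8b1 was lost without control replicate 1 or 2, HFD+Pc replicate 1, 3 or 4 or HFD replicate 1, 2 or 3 (adjusted p up to 0.15).

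Cyp7a1, which catalyses the committed step from cholesterol to bile acids, was at 22.03, 17.6 and 8.08 FPKM in control and at 9.84, 8.39 and 10.5 in HFD+Pc. The groups overlapped through control replicate 4 (-0.58 ± 0.33, adjusted p = 0.224). Nr0b2, the FXR-induced repressor SHP, was at 33.8 ± 12.2 and 50.1 ± 14.2 FPKM (adjusted p = 0.285). The number of list genes that rose was 4 without control replicate 1 and 3 without HFD+Pc replicate 3. The number that fell was 1 without control replicate 1, HFD+Pc replicate 3 or HFD+Pc replicate 4, and 2 without control replicate 2 or HFD+Pc replicate 1.

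Among 27 tested genes of glutathione metabolism and the NRF2 response, 8 rose and 4 fell, with a median difference of 0.16. Gclc, the catalytic subunit of glutamate-cysteine ligase, stood at 90.8, 84.8 and 54.95 FPKM in control and at 125, 149 and 153 in HFD+Pc, without overlap (0.91 ± 0.18, adjusted p = 0.009). Its modifier subunit gene Gclm rose from 36.95 ± 1.54 to 50.4 ± 4.22 FPKM (0.44 ± 0.09, adjusted p = 0.00874) and Prdx1, a peroxidase, from 187 ± 7.74 to 274 ± 13.4 (0.55 ± 0.10, adjusted p = 0.00707). Gstm2, a conjugating transferase, fell from 57.1 ± 11.6 to 24.1 ± 8.34 FPKM (-1.24 ± 0.24, adjusted p = 0.0083), and the haem oxygenase gene Hmox1 fell from 18.9 ± 2.44 to 11.2 ± 1.904 (-0.71 ± 0.13, adjusted p = 0.00651). Without 1 library the rises numbered 4 (HFD+Pc replicate 3) or 5 (control replicate 2 or HFD+Pc replicate 4), and the falls numbered 2 without control replicate 2 or 4 or HFD+Pc replicate 1 or 3.

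Mt1, a metallothionein gene, had the lowest difference of all tested genes with a symbol. Metallothioneins are small cysteine-rich proteins that bind zinc and copper, and their genes are induced by metals through the factor MTF1 and by glucocorticoids. Mt1 stood at 343, 547 and 159 FPKM in control, at 23.5, 26.4 and 39.9 in HFD and at 61.6, 13.1 and 20.2 in HFD+Pc. Control libraries ranged widely, and all lay above all libraries of the other groups (-3.55 ± 0.58, adjusted p = 0.00494), while HFD+Pc did not pass against HFD (-0.18 ± 0.58, adjusted p = 0.91). Mt2 was at 5.82, 11.01 and 2.26 FPKM in control, at 0.278, 0.991 and 1.32 in HFD and at 0.0973, 0.101 and 0.101 in HFD+Pc. These values rest on 64, 110 and 24 reads in control, on 3, 10 and 13 in HFD and on 1 read in each HFD+Pc library, below the floor of 3 reads per library. The fitted difference of -2.55 ± 0.41 (adjusted p = 0.00476) therefore depends on the pseudocount. Mt2 met the rule through the control libraries alone, so the rule itself set its groups apart. Of the 10 tested metallothionein and zinc transport genes, 3 fell and 2 rose, with a median difference of -0.07. The zinc importer gene Slc39a10 rose from 0.590 ± 0.0513 to 1.39 ± 0.178 FPKM (0.58 ± 0.11, adjusted p = 0.00795). Slc39a10 met the rule through the HFD+Pc libraries alone, so the rule itself set its groups apart. Slc39a5 (0.73 ± 0.21) and the zinc exporter gene Slc30a1 (-0.54 ± 0.16), itself an MTF1 target, passed in 5 and 4 of the 9 fits that left out a library. Slc39a5 was lost without control replicate 1 or 2 or HFD+Pc replicate 1 or 4 (adjusted p up to 0.105) and Slc30a1 was lost without control replicate 1 or 2, HFD+Pc replicate 3 or 4 or HFD replicate 2 (adjusted p up to 0.121). In all, 1 gene rose without control replicate 1 or 2 or HFD+Pc replicate 1 or 4.

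The metal response element core, searched as TGCACNC or TGCGCNC on both strands, occurred in 6 of 8 tested list genes with a window of 250 bases before the start, against 7032 of 32851 windows in all (21.4%). The Mt2 window held 3 matches, as did 3 or more in 415 of all windows (1.26%), and the Mt1 window held 1. They are shown because both of these neighbouring genes fell. The Mt1 window is chr8:94178839-94179088 and the Mt2 window chr8:94172368-94172617, on the plus strand of GRCm38.p6 in RefSeq, with matches in capitals. Counted back from the annotated start, they begin at 23 bases in Mt1 and at 223, 128 and 50 bases in Mt2. For each gene 1 annotated start is shown and bases past it were not searched, so these counts do not describe the whole promoter. The letters alone do not show that a factor is bound. A list gene counted if any of its windows matched, so the share of genes and the share of all windows are unlike measures.
Mt1: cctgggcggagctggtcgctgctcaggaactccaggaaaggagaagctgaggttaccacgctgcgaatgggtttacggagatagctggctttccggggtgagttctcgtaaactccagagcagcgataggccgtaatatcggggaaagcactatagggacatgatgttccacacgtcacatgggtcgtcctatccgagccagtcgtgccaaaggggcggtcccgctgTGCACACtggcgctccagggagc
Mt2: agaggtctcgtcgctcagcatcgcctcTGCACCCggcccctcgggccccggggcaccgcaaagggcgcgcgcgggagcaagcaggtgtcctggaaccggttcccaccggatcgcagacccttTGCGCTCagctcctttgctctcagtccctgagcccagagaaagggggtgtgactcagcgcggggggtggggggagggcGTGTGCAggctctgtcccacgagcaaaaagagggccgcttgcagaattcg

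Genes of iron handling gave 2 rises and 2 falls among 16 tested, near the 11.5% and 12.4% of all tested genes, with a median difference of -0.01. Tfrc, the transferrin receptor, rose from 2.603 ± 0.351 to 4.505 ± 0.754 FPKM (0.61 ± 0.13, adjusted p = 0.0118). Hamp, the gene of the iron hormone hepcidin, was at 1384, 934 and 692 FPKM in control, at 652, 805 and 2571 in HFD and at 311, 709 and 489 in HFD+Pc. The groups overlapped and the difference did not pass (-1.02 ± 0.52, adjusted p = 0.185). Id1 and Smad7, targets of the BMP signal that induces hepcidin, had differences of -1.14 ± 0.30 and -1.04 ± 0.26 (adjusted p = 0.0263 and 0.0215). The call of Id1 was lost without control replicate 1, 2 or 4 or HFD+Pc replicate 3 or 4 (adjusted p up to 0.0954) and that of Smad7 was lost without control replicate 1, 2 or 4 or HFD+Pc replicate 3 or 4 (adjusted p up to 0.0744). Hamp2 was at 10.1 ± 1.95, 3.19 ± 1.65 and 15.7 ± 2.05 FPKM in control, HFD and HFD+Pc, which did not pass against control (0.59 ± 0.26, adjusted p = 0.122). It passed against HFD (2.06 ± 0.26, adjusted p = 0.0164), a call lost without any HFD+Pc library or HFD replicate 2 (adjusted p up to 0.0992). Of the stretches of 40 bases in Hamp2, 16.9% also occur in another gene. Hamp2 held 1.41% of the control reads summed with Hamp, so its level could carry reads of Hamp and is uncertain. The number of rises was 1 without control replicate 2 or 4 or HFD+Pc replicate 3 or 4.

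Major urinary proteins are pheromone carriers whose liver genes depend on pulsatile growth hormone and STAT5B. Of 25 tested genes of this group and the growth hormone axis, 9 rose and 1 fell, with a median difference of 0.48. Because the Mup genes are near-identical copies, reads were also summed over 22 of them. The sum was 13734 ± 2727 RPM (reads scaled to a common library size) in control, 23624 ± 7446 in HFD and 21106 ± 2315 in HFD+Pc, with a log2 ratio of 0.62 between HFD+Pc and control. Single members are uncertain for the same reason: Mup11 was at 56.3, 157 and 89.98 FPKM in control and at 395, 347 and 246 in HFD+Pc (1.79 ± 0.38, adjusted p = 0.0125), while Mup15 was at 173 ± 103, 1921 ± 881 and 116 ± 28.6 FPKM in control, HFD and HFD+Pc. Mup15 did not pass against control (adjusted p = 0.512) and passed against HFD (-3.97 ± 0.45, adjusted p = 0.0125), a call lost without HFD+Pc replicate 3 or 4 or HFD replicate 2 (adjusted p up to 0.0687).

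Stat5b, which relays the growth hormone signal, rose from 16.3 ± 0.797 to 22.6 ± 1.93 FPKM (0.44 ± 0.09, adjusted p = 0.0101) and Stat5a from 2.68 ± 0.0487 to 4.19 ± 0.371 (0.50 ± 0.09, adjusted p = 0.00485). These paralogs share some sequence, and their summed reads had a log2 ratio of 0.50. Socs2, a feedback inhibitor that STAT5 induces, fell, with 4.14, 2.71 and 2.100 FPKM in control and 1.31, 0.175 and 0.466 in HFD+Pc (-1.30 ± 0.25, adjusted p = 0.00858). Without 1 library the rises numbered 4 (control replicate 1 or 4, or HFD+Pc replicate 3) or 5 (HFD+Pc replicate 1), and the falls numbered 2 (HFD+Pc replicate 1 or 4, or HFD replicate 1) or 3 (HFD replicate 2).

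Among 12 tested immediate early genes, 6 fell, 1 rose and 5 did not pass, with a median difference of -0.90, the lowest of the lists with at least 10 tested genes. Egr1, a transcription factor induced within minutes by growth factor signals, stood at 1.002, 1.51 and 0.407 FPKM in control, at 2.58, 2.96 and 1.43 in HFD and at 8.35, 9.35 and 7.04 in HFD+Pc. HFD+Pc lay above all other libraries, and control and HFD overlapped narrowly. Its difference was 2.26 ± 0.24 from control (adjusted p = 0.00142), and the smaller difference from HFD also passed (adjusted p = 0.0435). The latter call was lost without control replicate 1, any HFD+Pc library, or HFD replicate 1 or 2 (adjusted p up to 0.141). Junb went the other way, from 23.7, 10.8 and 9.83 FPKM in control to 5.52, 4.54 and 4.48 in HFD+Pc (-1.33 ± 0.27, adjusted p = 0.0102). Jund fell from 14.9 ± 2.23 to 7.38 ± 0.988 (-0.92 ± 0.12, adjusted p = 0.00179), Klf2 from 9.68 ± 2.59 to 4.19 ± 0.346 (-1.02 ± 0.19, adjusted p = 0.00771), and Dusp1, a MAP kinase phosphatase gene, fell by 1.41 ± 0.30 (adjusted p = 0.0124). Outside the list, Sik1, a kinase gene induced by cAMP, was at 11.3, 14.6 and 3.85 FPKM in control and at 1.31, 1.17 and 1.07 in HFD+Pc (-2.16 ± 0.36, adjusted p = 0.0052).

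Of 15 tested clock genes, 3 fell and 2 rose, beside 12.4% and 11.5% of all tested genes, with a median difference of -0.13. Per1, a core clock repressor, was at 3.85, 3.87 and 2.86 FPKM in control and at 0.467, 1.14 and 1.93 in HFD+Pc, without overlap (-1.10 ± 0.22, adjusted p = 0.00883). Bhlhe40, a repressor that dampens the clock, fell too (-1.26 ± 0.23, adjusted p = 0.00732). The REV-ERB genes, which repress Bmal1, were higher: Nr1d2 rose from 5.34 ± 1.02 to 9.85 ± 1.85 FPKM (0.77 ± 0.17, adjusted p = 0.0119), and Nr1d1 was at 6.96 ± 2.12 and 12.4 ± 0.370 (0.79 ± 0.19, adjusted p = 0.0198), a call lost without HFD+Pc replicate 3 (adjusted p up to 0.0636). The labels give no hour of sampling.

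Among 23 tested genes of endoplasmic reticulum chaperones, 7 rose, none fell and 16 did not pass, with a median difference of 0.40 and positive differences in 21. Hspa5, the chaperone BiP, stood at 70.5, 63.7 and 60.5 FPKM in control, at 75.7, 104 and 83.5 in HFD and at 96.02, 138 and 145 in HFD+Pc. No HFD+Pc library met the control range, and HFD overlapped HFD+Pc (0.93 ± 0.17, adjusted p = 0.00577). Dnajb9, a BiP cochaperone, rose from 18.4 ± 1.96 to 37.9 ± 3.15 FPKM (1.01 ± 0.11, adjusted p = 0.00132) and also passed against HFD, at 21.9 ± 2.53 FPKM (0.77 ± 0.11, adjusted p = 0.0238), a call lost without any HFD+Pc library or HFD replicate 1 or 2 (adjusted p up to 0.125). Xbp1, the transcription factor that IRE1 activates by splicing, rose from 35.5 ± 3.61 to 51.3 ± 0.847 (0.52 ± 0.10, adjusted p = 0.00618). Without HFD+Pc replicate 1 the number of rises was 11.

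Among 12 tested genes of the ATF4 amino acid stress response, 3 fell and none rose, with a median difference of -0.13 and 5 positive differences. Atf4 itself was at 36.7, 35.2 and 28.1 FPKM in control and at 15.9, 19.2 and 20.7 in HFD+Pc, without overlap (-0.81 ± 0.13, adjusted p = 0.00349). Slc3a2, an amino acid transporter subunit, fell from 9.405 ± 0.580 to 6.52 ± 0.481 FPKM (-0.47 ± 0.09, adjusted p = 0.00782). Of its stretches of 40 bases, 3.74% occur in other genes. Reads summed with the 7 genes that share sequence with it had a log2 ratio of 0.04, against -0.53 for Slc3a2 alone. Slc3a2 held 9.75% of that sum in control, so the sum cannot decide its direction. Atf5 had -0.65 ± 0.18 (adjusted p = 0.0296), a call lost without control replicate 1 or 4 or HFD+Pc replicate 1, 3 or 4 (adjusted p up to 0.0924). The median turned positive, and 1 gene rose, without HFD+Pc replicate 1. The heat shock list, which also holds mitochondrial chaperones, gave 3 rises of 14: Hspb1 from 18.8 ± 4.89 to 40.3 ± 5.43 FPKM (1.08 ± 0.21, adjusted p = 0.0091), Hsph1 from 2.27 ± 0.356 to 5.45 ± 1.598 (0.95 ± 0.17, adjusted p = 0.00533), and Hsp90aa1 (0.59 ± 0.14, adjusted p = 0.0153), lost without control replicate 2 or HFD+Pc replicate 3 (adjusted p up to 0.0566).

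Proteasome subunits had 9 rises and 1 fall among 32 tested genes and a median difference of 0.18. Psma1, an alpha ring subunit, stood at 23.02, 21.2 and 24.2 FPKM in control and at 32.4, 36.8 and 36.97 in HFD+Pc (0.61 ± 0.09, adjusted p = 0.00339). Psma3 and the ATPase gene Psmc6 rose by 0.49 ± 0.08 (adjusted p = 0.00434) and 0.47 ± 0.08 (adjusted p = 0.00442). Psmc1, another ATPase of the same ring, was lower (-0.35 ± 0.10, adjusted p = 0.0279), a call lost without control replicate 1 or 4 or HFD+Pc replicate 1 or 3 (adjusted p up to 0.093).

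Of 74 nuclear genes of oxidative phosphorylation, 27 fell and 4 rose, with a median difference of -0.19. Atp5k, which encodes subunit e of ATP synthase at its dimer interface, had the lowest adjusted p of these lists: it stood at 62.1, 62.3 and 64.5 FPKM in control, at 59.2, 60.7 and 35.3 in HFD and at 8.45, 8.33 and 8.17 in HFD+Pc. HFD+Pc lay far below every other library, and the difference passed against control (-2.78 ± 0.17, adjusted p = 0.000217) and against HFD (-2.46 ± 0.17, adjusted p = 0.00131). Ndufc2, a complex I subunit, fell from 60.7 ± 1.502 to 33.1 ± 1.45 FPKM (-0.86 ± 0.09, adjusted p = 0.0013) and Ndufa3, of the same complex, fell by 1.26 ± 0.17 (adjusted p = 0.0023). Against HFD, Ndufc2 passed (adjusted p = 0.0462) but kept that call only when HFD replicate 3 was the library left out (adjusted p up to 0.143 without any of the others). Atp5o, the oligomycin-sensitivity subunit, fell from 32.3 ± 0.714 to 17.7 ± 1.66 (-0.84 ± 0.08, adjusted p = 0.00101). The 4 genes that were higher, Ndufc1, Ndufs4, Uqcrc2 and Atp5h, differed by 0.27 to 0.34. No more than 2 of them passed without any single one of the control or HFD+Pc libraries, and none passed without control replicate 1, control replicate 2 or HFD+Pc replicate 4.

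Cytosolic ribosomal protein genes gave 26 falls and 3 rises among 76, with a median difference of -0.15. With each gene set against its mean over the 9 libraries, the list median was 0.28, 0.08 and 0.09 in control. It was -0.13, -0.09 and 0.10 in HFD+Pc, so replicate 4 of that group was not below control replicates 2 and 4. The summed FPKM overlapped too, at 6663 to 7651 in control and 5477 to 6710 in HFD+Pc. Rpl23a, a large subunit protein, stood at 82.4, 62.7 and 74.9 FPKM in control, at 64.4, 67.6 and 43.05 in HFD and at 18.7, 18.1 and 21.5 in HFD+Pc, with HFD+Pc below all other libraries (-1.86 ± 0.17, adjusted p = 0.00101). Rpl28 fell from 79.8 ± 4.58 to 26.6 ± 5.59 FPKM (-1.57 ± 0.18, adjusted p = 0.00145), Rpl41 from 193 ± 32.7 to 64.8 ± 13.2 (-1.57 ± 0.17, adjusted p = 0.0013), and the small subunit gene Rps28 fell by 1.84 ± 0.36 (adjusted p = 0.00913). Other members rose, among them Rpl10 from 158 ± 13.4 to 227 ± 19.2 FPKM (0.52 ± 0.10, adjusted p = 0.00668) and Rps21 from 77.04 ± 0.928 to 111 ± 17.7 (0.51 ± 0.11, adjusted p = 0.0111). Ribosomal protein genes share sequence with pseudogenes: summed with their copies, reads of Rpl23a and Rpl41 fell by 1.22 and 1.11 on the log2 scale, less than the 1.92 and 1.58 of the genes alone. Rpl7a, at 15.1 ± 1.81 and 3.31 ± 2.52 FPKM (-2.13 ± 0.46, adjusted p = 0.0125), a call lost without control replicate 1 (adjusted p up to 0.0506), shares sequence with 67 other genes. The number of falls was 14 without control replicate 1 and 17 without HFD+Pc replicate 3, and 5 genes rose without HFD replicate 1.

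Gene length moved with the direction of these calls. Over all tested genes, 15.8% of those up to 500 bases of exon fell, 20.7% of those with 500 to 1000 bases and 5.16% of those over 10000 bases. The median difference ran from -0.09 (500 to 1000 bases) to 0.07 (over 10000). Between these classes the median level, against each gene's mean, went from -0.09 to 0.05 in HFD+Pc replicate 1 and from -0.04 to 0.04 in replicate 3. In HFD+Pc replicate 4 it went from 0.03 to -0.004, and in HFD replicate 3 from -0.08 to 0.05. The trend thus differed between libraries of a group. Genes that fell had a median length of 3075 bases and genes that rose 4172. Of the oxidative phosphorylation genes, 17 were up to 1000 bases long and 10 of these fell, with 17 falls among the longer ones, and of the ribosomal protein genes 6 of the 26 falls were up to 1000 bases long. The part of length in the falls of these lists was not tested. Transcripts encoded by the mitochondrial genome were not lower: of 13, 2 rose, with a median difference of 0.37. These were mt-Co2, a subunit of cytochrome oxidase, at 131 ± 12.7 and 224 ± 55.9 FPKM (0.74 ± 0.18, adjusted p = 0.0186), lost without control replicate 1 or 4 (adjusted p up to 0.0614), and mt-Nd6 (0.67 ± 0.19, adjusted p = 0.0327), lost without control replicate 1 or 4 or HFD+Pc replicate 1, 3 or 4 (adjusted p up to 0.1). Both have copies or antisense neighbours whose reads cannot be told apart here. No list median changed sign with median ratio scaling, quantile normalization or plain read totals.

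**Figure D5:**
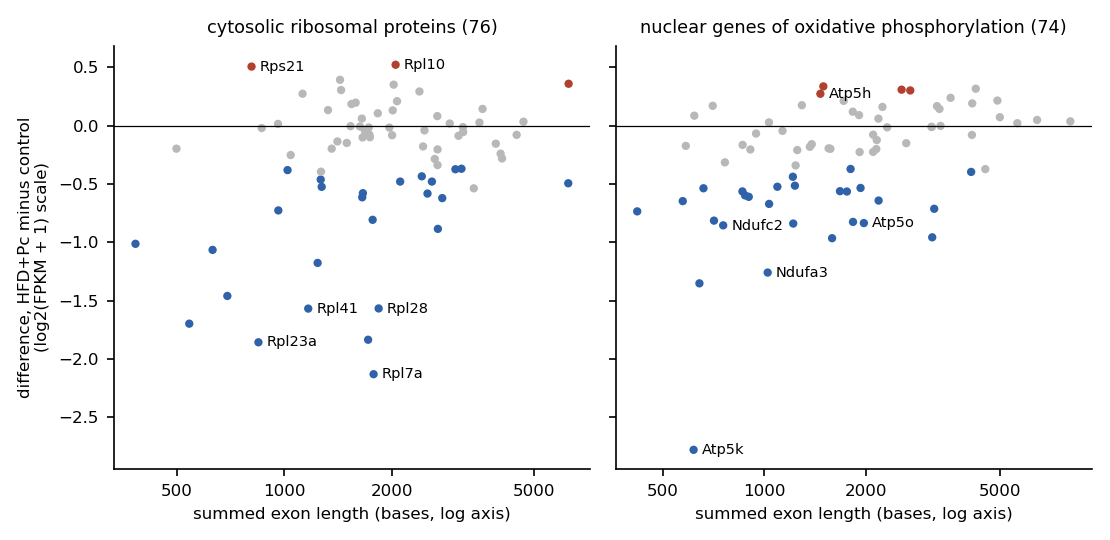
Difference between HFD+Pc and control (vertical, log2(FPKM + 1) scale) against summed exon length (horizontal, bases, log axis) for 76 ribosomal protein genes (left) and 74 nuclear genes of oxidative phosphorylation (right); red points rose, blue points fell and grey points did not pass. Falls occur over the whole range of lengths, with Atp5k at -2.78 and Rpl7a at -2.13 the lowest points of the panels.

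Of 45 tested genes of amino acid catabolism and the urea cycle, 13 fell and 3 rose, with a median difference of -0.16. Asl, the argininosuccinate lyase of the urea cycle, stood at 134, 164 and 171 FPKM in control, at 67.5, 74.3 and 83.8 in HFD and at 68.8, 82.95 and 82.9 in HFD+Pc, with control apart from both diet groups (-0.99 ± 0.13, adjusted p = 0.00179). Sds, the serine dehydratase, was at 94.9 ± 15.7 and 35.1 ± 7.65 FPKM (-1.42 ± 0.25, adjusted p = 0.00658). Mat1a, which makes S-adenosylmethionine, fell from 1841 ± 223 to 1139 ± 88.6 (-0.69 ± 0.13, adjusted p = 0.00741), and Got1, the cytosolic aspartate aminotransferase, fell by 1.48 ± 0.32 (adjusted p = 0.0133). Otc, the urea cycle step before argininosuccinate, rose from 81.2 ± 4.56 to 111 ± 11.02 FPKM (0.44 ± 0.10, adjusted p = 0.0118). Kmo and Bckdhb also passed, with Kmo lost without control replicate 1 or HFD+Pc replicate 3 (adjusted p up to 0.056) and Bckdhb lost without control replicate 4 or HFD+Pc replicate 3 (adjusted p up to 0.0598), and 1 gene rose without HFD+Pc replicate 3.

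Of 40 tested genes of the interferon response and antigen presentation, 9 fell and none rose, with a median difference of -0.23. Bst2, an interferon-induced antiviral tether, stood at 186, 174 and 221 FPKM in control, at 124, 112 and 105 in HFD and at 106, 98.8 and 109 in HFD+Pc (-0.88 ± 0.11, adjusted p = 0.00165). Irf7, the transcription factor of the type I response, was at 19.2, 20.99 and 25.5 FPKM in control and at 10.5, 5.86 and 8.44 in HFD+Pc (-1.33 ± 0.26, adjusted p = 0.00978), and in neither gene did HFD+Pc overlap control. H2-D1, a class I heavy chain, fell from 338 ± 10.9 to 202 ± 15.1 FPKM (-0.74 ± 0.13, adjusted p = 0.00542), a fall of 0.43 on the log2 scale when reads were summed with its close relatives. The number of falls was 5 without control replicate 1 and 4 without control replicate 4, HFD+Pc replicate 3 or HFD+Pc replicate 4, and 1 gene rose without control replicate 4.

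Acute phase genes changed little in number: 3 of 32 fell and 1 rose, with a median difference of -0.07. Cd14, the lipopolysaccharide coreceptor, fell from 4.61 ± 0.373 to 2.33 ± 0.665 FPKM (-0.77 ± 0.14, adjusted p = 0.00552). Il1b was at 2.58, 4.999 and 2.78 FPKM in control and at 1.62, 0.626 and 0.435 in HFD+Pc (-1.24 ± 0.29, adjusted p = 0.0172), a call lost without control replicate 2 or HFD+Pc replicate 3 or 4 (adjusted p up to 0.0636). The call of Serpina3m was lost without control replicate 1, 2 or 4, HFD+Pc replicate 1 or 3 or HFD replicate 2 or 3 (adjusted p up to 0.124) and that of Steap4 was lost without control replicate 2 or 4, HFD+Pc replicate 3 or 4 or HFD replicate 2 (adjusted p up to 0.126). Saa1, a serum amyloid gene, was at 236, 6.53 and 14.01 FPKM in control and at 10.8, 103 and 9.08 in HFD+Pc: 1 library of each group stood high, and the difference did not pass (adjusted p = 0.894). Without HFD+Pc replicate 3 the number of falls was 1, and without control replicate 2 or 4, HFD+Pc replicate 3 or 4 or HFD replicate 2 no gene rose.

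In the complement and coagulation list, 7 of 38 genes fell and 3 rose, beside 12.4% and 11.5% of all tested genes. The median difference was -0.08. C1ra, a protease of the classical pathway, fell from 90.1 ± 4.94 to 63.4 ± 2.32 FPKM (-0.50 ± 0.11, adjusted p = 0.0124) and Pros1, the anticoagulant protein S, from 26.1 ± 1.69 to 18.8 ± 2.095 (-0.46 ± 0.11, adjusted p = 0.0135). Cfd, the complement factor D or adipsin, was at 0.116, 0.128 and 0 FPKM in control, on 2, 2 and 0 reads, at 21.8, 9.92 and 5.23 in HFD and at 5.95, 2.33 and 5.202 in HFD+Pc, on 96, 36 and 81 reads. It was under the floor of 3 reads in every control library and above it in every other library (2.28 ± 0.43, adjusted p = 0.00844, a value that depends on the pseudocount), but limma-voom did not call it (adjusted p = 0.105). Cfd met the rule through the HFD+Pc libraries alone, so the rule itself set these groups apart. Cfd is also an adipocyte gene, and of that list the defining markers Adipoq, Lep and Plin1 were at 0 in all 6 libraries compared. In the HFD libraries these 3 markers reached up to 1.54, 0.0487 and 0.164 FPKM. The part of adipocytes in the Cfd levels was not tested. The summed adipocyte list, which includes Pck1, ran from 1215 to 1760 FPKM in control and from 973 to 1388 in HFD+Pc, with 1 rise and 2 falls among 6 tested genes. It had 2 rises without control replicate 1, and 1 fall without control replicate 2 or HFD+Pc replicate 1 or 3. Without control replicate 1 the number of falls in the complement and coagulation list was 4, and without HFD+Pc replicate 3 or 4 the number of rises was 1.

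Other genes with large differences lay outside these lists. Depp1, a FOXO target linked to autophagy, stood at 21.1, 33.9 and 18.2 FPKM in control, at 57.03, 54.8 and 44.7 in HFD and at 61.2, 127 and 101 in HFD+Pc, with no overlap between HFD+Pc and control (1.92 ± 0.29, adjusted p = 0.00369). Slc25a25, a mitochondrial carrier of ATP-Mg and phosphate, was at 76.3, 64.6 and 31.6 FPKM in control, at 11.8, 22.6 and 11.9 in HFD and at 14.7, 15.05 and 8.46 in HFD+Pc. All control libraries lay above all others (-2.04 ± 0.37, adjusted p = 0.00705). Serpina7, thyroxine-binding globulin, was at 9.55 ± 6.57 and 37.2 ± 12.2 FPKM (2.03 ± 0.59, adjusted p = 0.0371), a call lost without control replicate 2 or 4, HFD+Pc replicate 1, 3 or 4 or HFD replicate 1 (adjusted p up to 0.113). Several of the largest falls were predicted genes or pseudogenes whose reads overlap those of other genes. Rpl7a-ps5 (-2.27 ± 0.28, adjusted p = 0.00197), Gm5854 (-2.10 ± 0.41, adjusted p = 0.0089) and Gm12411 (-2.13 ± 0.37, adjusted p = 0.00618) share sequence with 53, 63 and 59 other genes, so their own levels are uncertain. Summed with those relatives, reads fell by 1.98 for Rpl7a-ps5, 1.97 for Gm5854 and 0.13 for Gm12411 on the log2 scale.

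Markers of other liver cells were tested beside these groups. Hepatocyte markers gave 2 rises and 2 falls among 18, near the 11.5% and 12.4% of all tested genes. Their sum ran from 66118 to 67111 FPKM in control and from 55142 to 69458 in HFD+Pc. Hnf4a, the hepatocyte master regulator, fell from 115 ± 10.4 to 81.6 ± 3.73 FPKM (-0.48 ± 0.11, adjusted p = 0.0131). Without any single control or HFD+Pc library 1 hepatocyte marker rose, as it did without HFD replicate 2, and 1 fell except without HFD+Pc replicate 4, where 2 did. Macrophage and Kupffer cell markers gave 3 falls and no rise among 19, with a median difference of -0.41 and sums of 543.7 to 754.7 FPKM in control and 383.5 to 600.5 in HFD+Pc. C1qa, which Kupffer cells make, was at 69.6, 57.4 and 78.6 FPKM in control and at 35.5, 28.6 and 25.3 in HFD+Pc (-1.18 ± 0.22, adjusted p = 0.00782). C1qc was lost without control replicate 1 or 4 or HFD+Pc replicate 3 or 4 (adjusted p up to 0.109) and Mpeg1 was lost without control replicate 1 or 4, HFD+Pc replicate 3 or 4 or HFD replicate 1, 2 or 3 (adjusted p up to 0.126). Without HFD+Pc replicate 1, 7 macrophage genes fell, and without control replicate 1 or 4 or HFD+Pc replicate 3 or 4, 1 did.

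Endothelial markers gave 3 falls among 15, with Cdh5, the junction cadherin, going from 13.1 ± 1.002 to 8.64 ± 0.853 FPKM (-0.55 ± 0.12, adjusted p = 0.0125), and summed to 161.6 to 178 FPKM in control and 139 to 144.2 in HFD+Pc. Without control replicate 4 or HFD+Pc replicate 3, 1 of them fell. Stellate cell markers gave 5 falls and 1 rise among 15. Lrat, which stores retinol as ester, rose from 3.58 ± 0.733 to 6.77 ± 0.948 FPKM (0.77 ± 0.13, adjusted p = 0.00524), while Colec11, Cygb and Pdgfrb fell by 0.61, 0.55 and 0.50. The falls numbered 3 without control replicate 2 or HFD+Pc replicate 3, and 2 genes rose without control replicate 1. Erythroid genes fell in 3 of 6, with Hba-a2 at 24.9 ± 3.32 and 12.8 ± 4.201 FPKM (-0.95 ± 0.24, adjusted p = 0.0237), lost without control replicate 1 or 4 (adjusted p up to 0.0735), and sums of 257 to 399.9 FPKM in control and 171.1 to 236.5 in HFD+Pc, but none fell without control replicate 1 or 4. Bile duct, T and NK, and neutrophil lists gave no call among 3, 6 and 3 tested genes, and the B and plasma cell list gave Xbp1 alone. The neutrophil marker Ly6g was at 0 in all libraries. Of the muscle and pancreas markers, 8 of 16 were at 0 in all libraries, among them Ckm, Prss2 and Pnlip, and the 1 that was tested, the elastase gene Cela1, passed. It was at 4.18 ± 0.273 and 6.45 ± 0.989 FPKM (0.52 ± 0.14, adjusted p = 0.0246), a call lost without control replicate 1 or 2 or HFD+Pc replicate 3 or 4 (adjusted p up to 0.0772), and the list summed to 4.29 to 4.74 FPKM in control and 5.78 to 7.56 in HFD+Pc. The part of these cell markers in the falls of the interferon, complement and acute phase genes was not tested.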

How the data were processed

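RNA of 9 liver libraries was analysed, 3 each of control, HFD and HFD+Pc. Values are FPKM per gene in 1 table deposited by the authors; per the submitters' processing notes HISAT2 2.0.5 and build GRCm39 were used, and the counting tool, annotation and library size behind the FPKM values are not given in the sources used here. Of 26278 genes above 0, 25345 gave whole reads from the FPKM steps with their annotated exon length. The tolerance was 0.02 of a read, wider at very high counts. For the other genes the shortest length that made every value whole was taken. Their reads could be off by a common factor, and recovery of all genes is no check. The library size implied by the FPKM values was 97.4% (control replicate 2) to 108% (HFD replicate 1) of the recovered reads.

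Genes reaching 1 FPKM in 3 or more of the 6 HFD+Pc and control libraries were tested as log2(FPKM + 1) with limma 3.58.1 in R 4.3.3 (trend and robust estimation, all 9 libraries, 1 mean per group, two-sided), with Benjamini-Hochberg adjustment over all 10628 genes and a threshold of 0.05. FPKM are not counts, so limma-voom on the recovered reads was an alternative, beside other scalings, pseudocounts and filters, the replicate number as a block, and omission of single libraries. On simulated data, the fit recovered 51.5%, 83.3% and 92.4% of genes changed 1.5-fold, 2-fold and 4-fold, and called 10 of 10428 unchanged genes. Only 68, 66 and 66 genes were changed, none at the lowest levels, and genes varied independently within a library. The measured data had many more calls and shifts shared within libraries, so these rates need not hold there.

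Named genes were the 12 largest rises and 12 largest falls among passing genes with a symbol and no overlap, having a mean of at least 1 FPKM in both groups or 5 in either, up to 3 passing genes per direction from each of 37 gene lists by adjusted p, and a panel of well-known liver genes. Some further list members and the libraries' exceptions are named after their values were seen. The members and lists were chosen with earlier results of these data known. Sequence sharing was counted as 60 or more shared stretches of 40 bases between transcripts. Promoter windows are from RefSeq. The values of a few list members are not reported here, and list counts include them.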

Additional observations from a re-analysis of the deposited data

How the results depend on the processing

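The number of genes higher was 1227 and lower 1318. Without a filter on low values, which tested 26278 genes, the counts were 636 and 747. Leaving out 1 library gave 619 to 1256 higher and 805 to 1372 lower. With the replicate number as a block the counts were 444 and 591, and 980 of the 2545 calls were also made there. Replicate numbers 1 and 4 occur in both groups, and libraries of the same number did not deviate together (r = -0.126 and -0.0009). With so few pairs, and deviations taken from means of 3 libraries, these values cannot decide whether libraries of a number share more than the number. Every other scaling, pseudocount, filter and test stayed within 1.5 times both counts, and the share of calls that were higher ran from 42.9% to 51.6% over all alternatives. Plain read totals were chosen after seeing the data. Of the 2545 calls, 1173 were made in all 9 fits that left out a library, 2241 with the 6 compared libraries alone and 2428 by limma-voom, which called 2790.

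Of 165 named genes, 151 passed and 101 of these passed in all 9 such fits. The differences of 3 genes that did not pass changed sign when 1 library was left out: Cidec ran from -0.46 to 0.083 (above 0 without HFD+Pc replicate 3), Mup15 from -0.85 to 0.015 (above 0 without control replicate 2) and Saa1 from -1.45 to 1.12 (above 0 without control replicate 1, or at 0.11 and 0.23 without HFD+Pc replicate 1 or 4). The cause was not tested. Depth limits genes near 1 FPKM, where few reads stand behind a value.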

Other observations

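These families were chosen after their values were seen. Both tested aldehyde oxidase genes, which oxidize drugs and retinal, rose. Aox3 was at 40.5, 44.9 and 25.6 FPKM in control, at 105.9, 168 and 91.6 in HFD and at 92.7, 135 and 121 in HFD+Pc (difference 1.65 ± 0.27, limma adjusted p = 0.00512). Aox1 was at 6.21 ± 0.608 and 13.3 ± 1.32 FPKM (0.99 ± 0.09, adjusted p = 0.00101). In both genes all HFD+Pc libraries lay above all control libraries.

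Of 12 tubulin genes, which encode the subunits of microtubules and of their nucleating complex, 4 rose and none fell, with a median difference of 0.12. Tubb4b was at 21.7, 20.6 and 17.4 FPKM in control and at 26.8, 44.3 and 49.4 in HFD+Pc (0.94 ± 0.20, adjusted p = 0.0122), with HFD+Pc replicate 1 lowest of its group. Tuba1b rose by 0.81 ± 0.15 (adjusted p = 0.00623). Tuba4a and Tuba1c also passed, but not without any single control library or without HFD+Pc replicate 3 or 4 (adjusted p up to 0.0925 and 0.0912).

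Of 18 mitochondrial tRNA and rRNA genes, 7 rose and none fell, with a median difference of 0.89. The tRNA gene mt-Tp was at 784, 829 and 887 FPKM in control, at 1183, 1057 and 1371 in HFD and at 2377, 1980 and 1701 in HFD+Pc (1.26 ± 0.15, adjusted p = 0.00142). The median length of these genes was 69 bases, and FPKM of genes this short depend strongly on how reads at their ends and from neighbours were counted. Of 52 ribosomal protein pseudogenes, 14 fell and 4 rose, with a median difference of -0.24.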
